A study of Sus scrofa with 6 samples.

Results

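The genes described here are the 6 protein-coding genes of the pig mitochondrial genome that encode cytochrome and ATP synthase subunits: COX1, COX2, COX3, CYTB, ATP6 and ATP8. They were chosen by name among the 21280 genes of the deposited table, and all 6 were found there and passed the filter on low values. The other 7 mitochondrial protein genes, ND1 to ND6 and ND4L, encode complex I subunits and serve here as the rest of the mitochondrial total. The series holds 3 libraries of wild boar tissue labelled brain and 3 of the Rongchang pig, a domestic breed from China, labelled cerebrum; the title of the study names the prefrontal cortex. The labels give the source of every library as a female aged 2 years and name no treatment or genetic change. The domestic pig libraries were re-analysed from an earlier deposit, so breed, labelled tissue and source cannot be told apart. The values are TPM, a level per transcript length scaled to a fixed total per library. The files give no read counts for genes, so the depth is unknown.

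Mitochondria keep a small genome whose proteins sit in the membrane complexes of the respiratory chain. It is transcribed into long RNAs that are cut, mostly at transfer RNAs, into separate messengers. COX1, COX2 and COX3 form the catalytic core of cytochrome c oxidase, complex IV, which passes electrons to oxygen. CYTB is the central membrane subunit of complex III. ATP6 and ATP8 belong to the membrane part of ATP synthase, complex V, and their reading frames overlap on a shared messenger, as do those of ND4L and ND4. Neurons rely heavily on this pathway, and mitochondrial messengers are abundant in brain RNA.

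Markers of brain cells were present. Neuron markers summed to between 851 and 2123 TPM in wild boar and between 1443 and 2581 TPM in domestic pig. Every matched marker of neurons, astrocytes, oligodendrocytes and microglia was above 0 in all 6 libraries. So were all other matched markers of the 10 cell type lists, so being above 0 does not tell tissues apart. Protein-coding TPM summed to between 17.2% and 31.0% of 1000000 in wild boar libraries and between 23.5% and 40.9% in domestic pig libraries. A library with a larger sum tended to have higher TPM for most genes, though not in strict order. Shares and ratios within a library are therefore given beside the levels. Red blood cell markers, HBB, HBM, AHSP and ALAS2, summed to between 522 and 760 TPM in wild boar and between 123 and 312 TPM in domestic pig, with all 4 above 0 in every library and no overlap between the groups. Of 10 marker lists this was the one whose sums did not overlap. The part of blood content in the results below was not tested. In tissue of mixed cells, fewer cells of a type and less RNA per cell cannot be told apart.

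The 6 genes held most of the mitochondrial total in both groups. They took 85.3%, 80.2% and 83.7% of the summed TPM of the 13 mitochondrial genes in wild boar 1 to 3, against 78.9%, 75.5% and 84.0% in domestic pig 1 to 3. The mean of wild boar was 83.1% ± 2.63 and that of domestic pig 79.5% ± 4.25 (SD over 3 libraries each; p = 0.3 by a two-sided exact permutation test). All shares and ratios so tested numbered 14, and over these the Benjamini-Hochberg adjusted p was 0.7. The groups overlapped, as domestic pig 3 was above wild boar 2 and 3. With 3 against 3 this exact test cannot go below p = 0.1, so no share or ratio here could pass 0.05.

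Set against all listed genes, the 13 mitochondrial genes took 14.0%, 19.1% and 16.8% of all protein-coding TPM in wild boar, against 16.95%, 20.7% and 26.5% in domestic pig. The 6 genes alone took 11.98%, 15.3% and 14.1% in wild boar, against 13.4%, 15.6% and 22.3% in domestic pig. Domestic pig 3 stood above the other 5 libraries in both. The mitochondrial share averaged 16.7% ± 2.53 in wild boar, with 21.4% ± 4.82 for domestic pig, and did not pass (SD over 3 libraries each; p = 0.2 by exact permutation, 0.56 adjusted).

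The levels followed nearly the same order in every library. COX1 and COX2 were the 2 highest of all 21280 genes in all 6 libraries, and COX3 and ATP6 ranked between 3 and 7. ATP8 ranked between 5 and 44, and CYTB between 16 and 35. Over the 6 libraries the order was COX1, COX2, COX3, ATP6, ATP8 and CYTB. Each step from COX2 to COX3, ATP6 and ATP8 went the same way in 6 of 6 libraries. The first and last steps held in 5 of 6: in domestic pig 2 COX2 was above COX1, and in domestic pig 1 CYTB was above ATP8. In each group the ranges of COX1 and COX2 overlapped, as did those of COX3 and ATP6 and of ATP6 and ATP8. COX2 was above COX3 without overlap in both groups, and ATP8 above CYTB without overlap in wild boar but not in domestic pig.

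**Figure D1:**
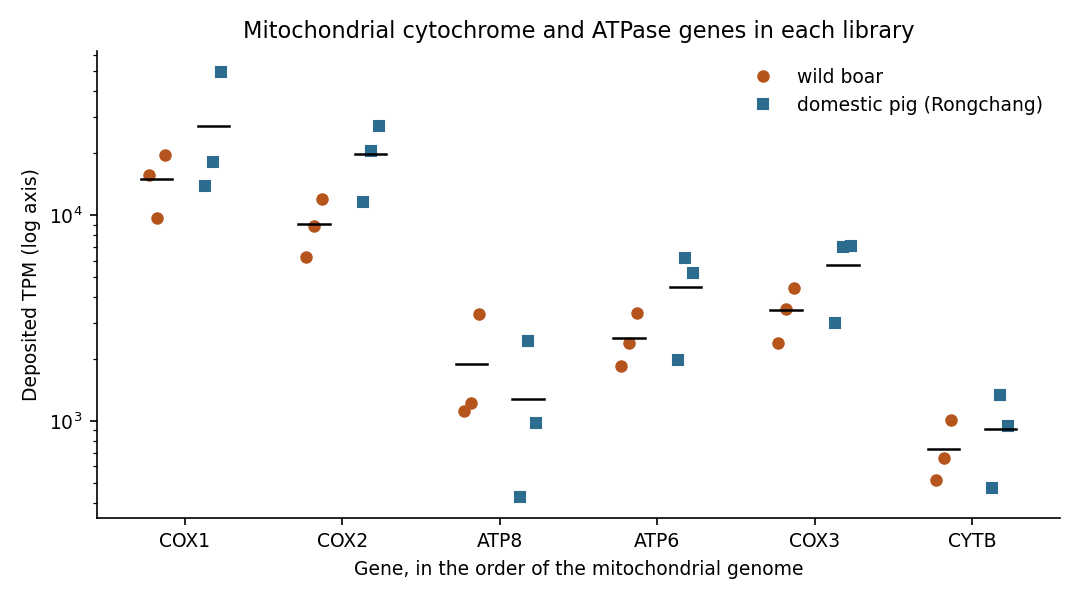
Deposited TPM (log axis) of the 6 genes, in their order on the mitochondrial genome, in each wild boar library (circles) and domestic pig library (squares); black bars are group means. The groups overlap for each gene, and ATP8 is the one gene with a higher mean in wild boar, 1883 against 1281 TPM, where wild boar 3 at 3313 TPM lies above the other wild boar libraries at 1117 and 1220 TPM.

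Among the complex IV genes, COX1 (ENSSSCG00000018075), which carries the oxygen-reducing site, had 15647, 9690 and 19577 TPM in wild boar 1 to 3, against 13933, 18180 and 49681 TPM in domestic pig 1 to 3. Its groups overlapped, and domestic pig 3 stood far above the other 5 libraries; wild boar averaged 14971 ± 4978 TPM and domestic pig 27265 ± 19529 TPM (SD, n = 3 each). COX2 (ENSSSCG00000018078), which takes electrons from cytochrome c, had 6240, 8824 and 12008 TPM in wild boar, against 11617, 20457 and 27101 TPM in domestic pig. Only wild boar 3 and domestic pig 1 overlapped. COX3 (ENSSSCG00000018082), a structural core subunit, had 2391, 3497 and 4435 TPM in wild boar, against 3001, 6966 and 7112 TPM in domestic pig. Domestic pig 1 lay inside the wild boar range, and the other domestic pig libraries above it.

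CYTB (ENSSSCG00000018094), the complex III gene, had 513, 656 and 1007 TPM in wild boar, against 473, 1337 and 939 TPM in domestic pig. Domestic pig 1 lay below the wild boar range, domestic pig 2 above it and domestic pig 3 inside it. Of the complex V genes, ATP6 (ENSSSCG00000018081), which forms the proton path, had 1845, 2394 and 3325 TPM in wild boar, against 1973, 6167 and 5239 TPM in domestic pig. ATP8 (ENSSSCG00000018080), a small subunit and the shortest of the 13 reading frames in the Sscrofa11.1 RefSeq annotation, had 1117, 1220 and 3313 TPM in wild boar, against 428, 2438 and 977 TPM in domestic pig. In wild boar 3 ATP8 and ATP6 were nearly level, whereas in domestic pig 1 and 3 ATP8 was far below ATP6. ATP8 also varied most among the libraries of a group: its highest wild boar library was 2.97 times the lowest and its highest domestic pig library 5.70 times the lowest, against 1.80 to 2.02 and 2.33 to 3.57 times for the other 5.

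On deposited TPM, 1 of the 6 genes passed the test and was lower in wild boar. Of all 11752 genes tested, 1.60% passed, 0.136% as higher and 1.46% as lower in wild boar. COX2 fell to 9024 ± 2889 TPM in wild boar, against 19725 ± 7768 in domestic pig (SD over 3 libraries each), a log2 fold change of -1.09 with an SE of 0.30 and a limma adjusted p of 0.0216. All tested genes had a median of log2 -0.41. COX1, ATP6 and COX3 were at log2 -0.69 (SE 0.29), -0.71 (SE 0.34) and -0.67 (SE 0.33), CYTB was at -0.27 (SE 0.38) and ATP8 at 0.71 (SE 0.37); none of these 5 passed, with limma adjusted p between 0.201 and 0.689. The ATP8 value was 0.21 without wild boar 3, 0.098 without domestic pig 1 and 1.35 without domestic pig 2, and passed in none of these fits. On this scale limma pooled the variance wholly over genes of like level, and the SE of COX2 from its own 6 values alone was 0.45. Taken the same way, the SE was 0.88 for ATP8, 0.63 for COX1, 0.57 for ATP6, 0.52 for CYTB and 0.49 for COX3. Each was above the pooled SE, and that of ATP8 was above its log2 change of 0.71.

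The COX2 call rested on several libraries. Leaving out wild boar 1 gave log2 -0.85 (limma adjusted p = 0.664), wild boar 2 gave -1.10 (0.122), domestic pig 2 gave -1.03 (0.279) and domestic pig 3 gave -0.82 (0.182), each of which ends the call while the direction stayed the same. Of all genes tested, 0.494% to 0.962% passed in these 4 fits. Without wild boar 3 the call held, at log2 -1.33 (limma adjusted p = 0.0278), and 2.38% of all genes tested passed. Without domestic pig 1, the domestic pig library of lowest COX2 level, 4 genes passed as lower in wild boar, and 5.66% of all genes tested passed in that fit: COX2 at log2 -1.43 (limma adjusted p = 2.48e-04), COX1 at -1.06 (0.0101), ATP6 at -1.21 (0.0240) and COX3 at -1.08 (0.0411). The COX2 change also missed the threshold when TPM were scaled to the nuclear protein-coding sum, at log2 -0.69 (SE 0.40, limma adjusted p = 0.253; 17.3% of all genes tested passed there), and in limma without the mean-variance trend, at the same -1.09 (0.0587).

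After median-ratio rescaling, which puts the median of all genes at 0.01, 0 of the 6 genes passed, while 19.5% of all genes tested did, 8.88% as higher and 10.7% as lower in wild boar. None of the 6 had groups that did not overlap, on deposited TPM (17.5% of all genes tested) or on rescaled TPM (41.7%). By limma's unadjusted p on rescaled TPM, ATP8 alone of the 6 was under 0.05, beside 4328 of all 11752 genes tested. On deposited TPM, COX1, COX2, COX3 and ATP6 were under 0.05 by that p, and ATP8 and CYTB were not. There 2091 of all genes tested were under it. On deposited TPM that p rests on the pooled SE, which for each of the 6 genes was below the SE from its own values. After rescaling, ATP8 was at log2 1.23 (SE 0.48, limma adjusted p = 0.103), with rescaled TPM of 1266, 2115 and 2845 in wild boar, against 488, 1695 and 713 in domestic pig. Without domestic pig 2 it passed, at log2 1.73 (limma adjusted p = 0.0225), in a fit where 18.8% of all genes tested passed. Without any 1 of the other 5 libraries it did not, and 6.59% to 12.4% of all genes tested passed in those fits. ATP8 was then at 0.84 (limma adjusted p = 0.283) without domestic pig 1, 0.96 (0.259) without wild boar 3, 1.11 (0.211) without domestic pig 3, 1.18 (0.217) without wild boar 2 and 1.55 (0.0938) without wild boar 1. CYTB was at 0.25 (SE 0.31), and COX3, COX1, ATP6 and COX2 were at -0.15 (SE 0.43), -0.18 (SE 0.69), -0.19 (SE 0.41) and -0.58 (SE 0.58). The sign of COX1, COX3 and ATP6 turned with quantile scaling.

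**Figure D2:**
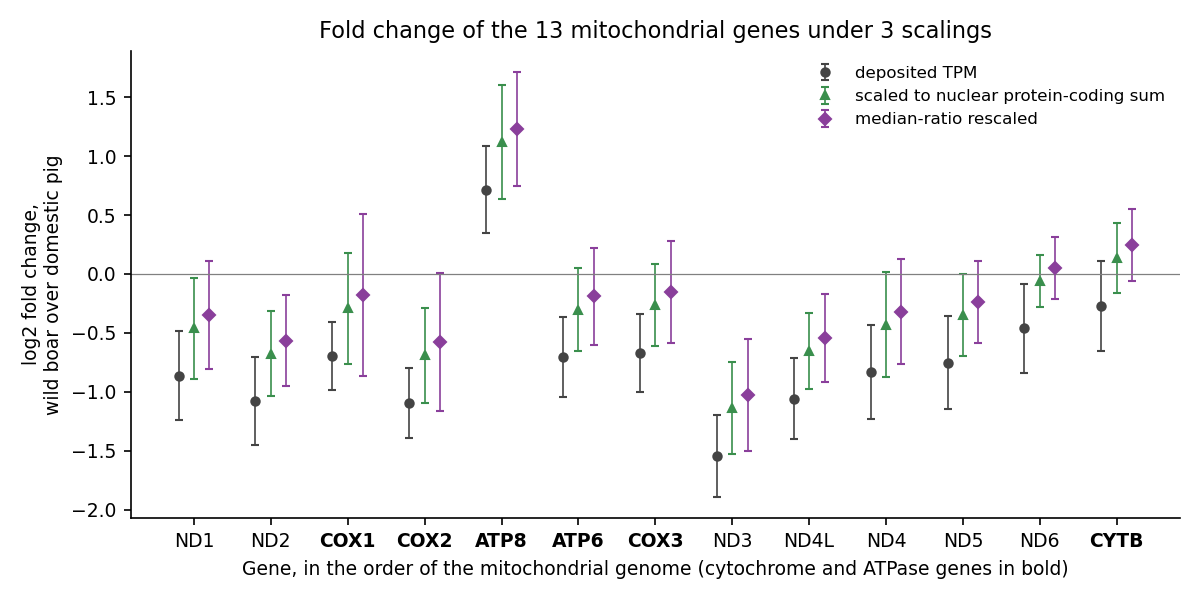
Log2 fold change of wild boar over domestic pig, with limma's SE as error bars, for the 13 mitochondrial genes in genome order on deposited TPM, on TPM scaled to the nuclear protein-coding sum and after median-ratio rescaling. The scaling shifts all 13 genes together, and ATP8 lies highest on each, at 0.71, 1.12 and 1.23. On deposited TPM the SE is pooled over genes, at 0.37 for ATP8 against 0.88 from its own values.

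The 7 ND genes were at log2 -1.54 (ND3) to -0.46 (ND6) on deposited TPM and at -1.03 to 0.05 on rescaled TPM by limma. The 6 cytochrome and ATPase genes ran from -1.09 to 0.71 and from -0.58 to 1.23. ND3 alone of the 7 passed on deposited TPM (limma adjusted p = 0.00173, below the 0.0216 of COX2), where 1.60% of all genes tested did. None of the 7 passed on rescaled TPM. On deposited TPM the groups of ND3 and ND6 did not overlap, as for 17.5% of all genes tested.

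Shares of the mitochondrial total do not depend on the scaling between libraries. COX1 took 48.1%, 29.6% and 37.5% of it in wild boar, against 35.0%, 24.7% and 45.8% in domestic pig, so its share varied more within each group than between the means of 38.4% ± 9.30 for wild boar and 35.2% ± 10.6 for domestic pig (SD over 3 libraries each; p = 0.7 by exact permutation, 0.969 adjusted). COX2 took 19.2%, 26.9% and 23.0% in wild boar, against 29.2%, 27.8% and 24.997% in domestic pig; domestic pig 3 was below wild boar 2 (p = 0.2 by exact permutation, 0.56 adjusted). COX3 took 8.84% ± 1.68 in wild boar, with 7.86% ± 1.48 for domestic pig, and ATP6 took 6.45% ± 0.82 in wild boar, with 6.06% ± 2.02 for domestic pig (SD over 3 libraries each; p = 0.6 and 0.8 by exact permutation, both 0.969 adjusted). CYTB took 1.58%, 2.00% and 1.93% in wild boar, against 1.19%, 1.82% and 0.866% in domestic pig (p = 0.2 by exact permutation, 0.56 adjusted).

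ATP8 was the one gene of the 6 whose shares did not overlap between the groups. It took 3.43%, 3.72% and 6.35% of the mitochondrial total in wild boar, against 1.07%, 3.32% and 0.901% in domestic pig. Wild boar 1, the lowest of its group, lay just above domestic pig 2. Wild boar averaged 4.50% ± 1.61 and domestic pig 1.76% ± 1.35 (SD over 3 libraries each; p = 0.1 by exact permutation, which is the lowest it can give, and 0.56 adjusted). The difference of 2.74 percentage points was 1.81 without wild boar 3 and 3.51 without domestic pig 2. With TPM multiplied by coding length, which gives the short ATP8 frame less weight, it was 0.536 points (p = 0.2 by exact permutation). The groups overlapped in that setting.

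**Figure D3:**
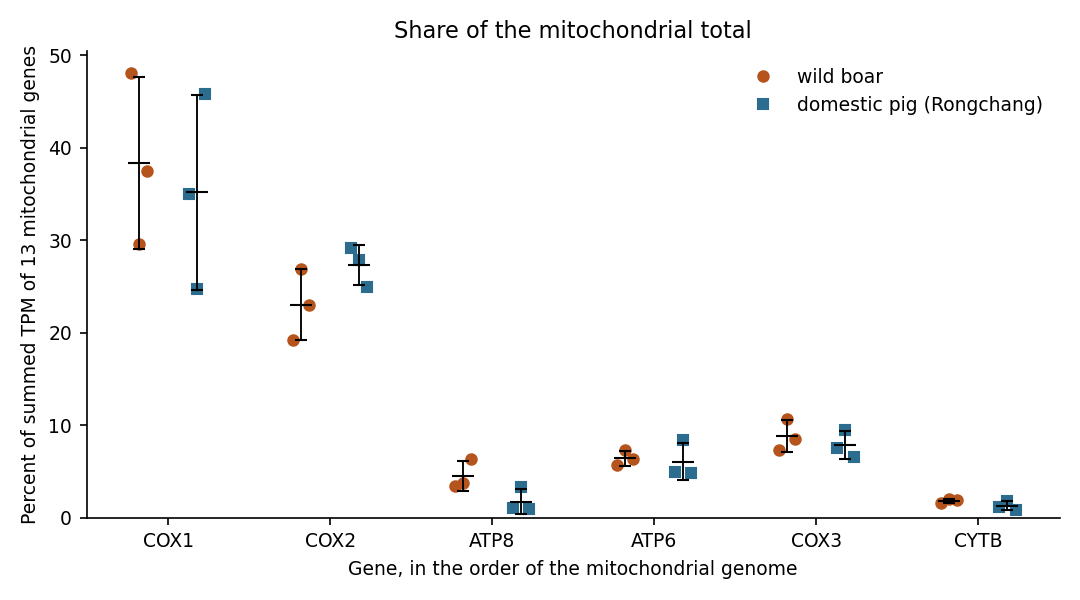
Percent of the summed TPM of the 13 mitochondrial genes taken by each of the 6 genes in wild boar (circles) and domestic pig (squares) libraries, with group mean and SD (n = 3 each). COX1 and COX2 take the most, and ATP8 is the one gene whose groups do not overlap, at 3.43% to 6.35% against 0.901% to 3.32%. It is 1 of 13 shares, as those of the ND genes, not drawn, all overlap.

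The contrast of ATP8 with ATP6, which lies beside it on the same messenger, was tested as a ratio within each library. ATP8 stood at 0.605, 0.509 and 0.996 times the TPM of ATP6 in wild boar 1 to 3, against 0.217, 0.395 and 0.186 times in domestic pig 1 to 3. All 3 wild boar ratios were above all 3 domestic pig ratios. On the log2 scale the ratio averaged -0.57 ± 0.50 in wild boar, with -1.99 ± 0.57 for domestic pig, a difference of 1.42 (SD over 3 libraries each; p = 0.1 by exact permutation, again the lowest possible, and 0.56 adjusted). The difference was between 1.14 (without wild boar 3) and 1.75 (without domestic pig 2) when any 1 library was left out. How the authors' counting treated reads in the overlap of ATP8 and ATP6 is not given in the sources used here, and its part was not tested.

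The other overlapping pair gave a comparison. ND4L, the shorter frame, stood at 8.98, 5.62 and 6.48 times the TPM of ND4 in wild boar, against 11.6, 6.75 and 6.66 times in domestic pig, with overlapping groups. ATP8, the shorter frame of its own pair, was below ATP6 in 6 of 6 libraries.

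ATP8 was also higher in wild boar relative to most other mitochondrial genes. Of the 78 pairs that the 13 genes form, the log2 ratios of 17 did not overlap between the groups (21.8%). Of the 12 pairs with ATP8, 8 did not overlap, all with ATP8 relatively higher in wild boar, against 9 of the 66 pairs without it; these pairs share genes and are a description. Relative to COX2, ATP8 was at log2 -2.48, -2.86 and -1.86 in wild boar, against -4.76, -3.07 and -4.79 in domestic pig. Relative to COX1, COX3, ND3 and ND6 its groups overlapped, in each case because of domestic pig 2, the domestic pig library of highest ATP8.

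**Figure D4:**
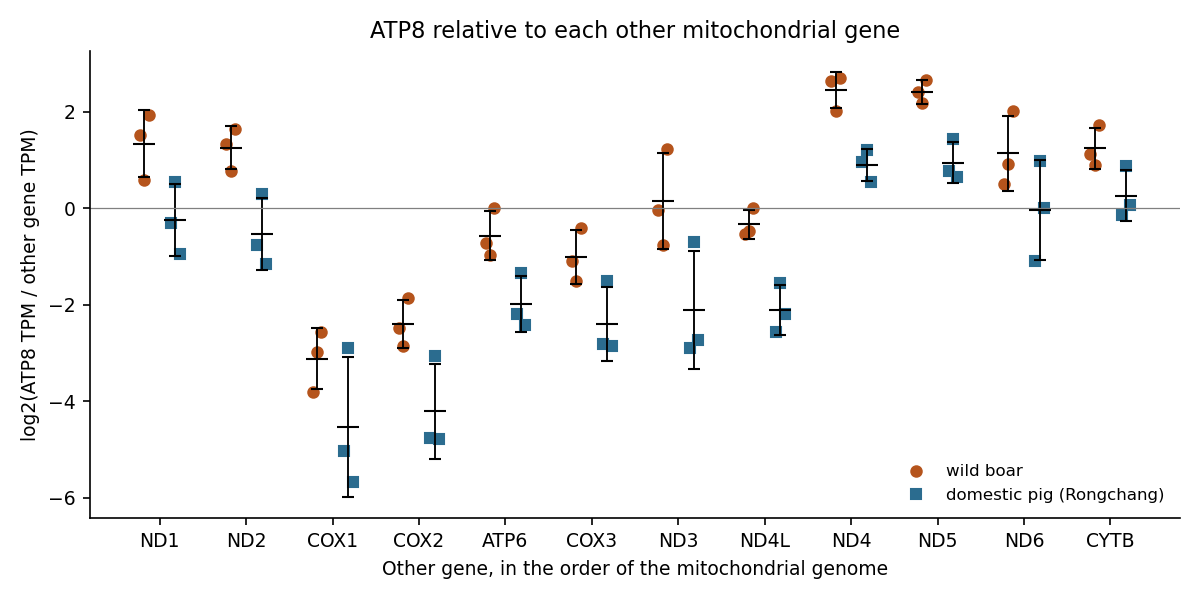
Log2 ratio of ATP8 TPM to the TPM of each other mitochondrial gene, in genome order, for wild boar (circles) and domestic pig (squares) libraries, with group mean and SD (n = 3 each). The wild boar mean is higher for each of the 12 genes, and against ATP6 it is -0.57, with -1.99 in domestic pig.

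The ratios of CYTB did not overlap in 6 of its 12 pairs, beside 17 of all 78 pairs (21.8%). Apart from the pair with ATP8, CYTB was relatively higher in wild boar in each of these 6. All 12 pairs share CYTB, so the count is a description. ATP6 stood above CYTB by log2 1.85, 1.87 and 1.72 in wild boar, against 2.06, 2.21 and 2.48 in domestic pig. COX2 stood above CYTB by 3.60, 3.75 and 3.58 in wild boar, against 4.62, 3.94 and 4.85 in domestic pig. COX2 was also set lower against COX3 in wild boar, at 1.38, 1.34 and 1.44, against 1.95, 1.55 and 1.93 in domestic pig. The wild boar libraries lay close together in these 3 pairs, with SDs of 0.08, 0.09 and 0.05 log2 units, against 0.21, 0.48 and 0.22 in domestic pig. These pairs are named because their groups did not overlap, a choice that favours a small spread within groups.

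The other ratios tested overlapped between the groups. ATP6 against COX3, its neighbour on the other side, was at log2 -0.45 ± 0.09 in wild boar, with -0.41 ± 0.22 for domestic pig (SD over 3 libraries each; p = 0.9 by exact permutation, 0.969 adjusted). Against COX1, COX3 was at -2.11 ± 0.62 in wild boar, with -2.13 ± 0.71 for domestic pig, and ATP6 at -2.55 ± 0.53 in wild boar, with -2.54 ± 0.88 for domestic pig (SD over 3 libraries each; p = 0.9 and 1 by exact permutation, 0.969 and 1 adjusted). COX2 against COX1 was at -0.72 ± 0.60 in wild boar, with -0.32 ± 0.52 for domestic pig, and CYTB against COX1 at -4.37 ± 0.53 in wild boar, with -4.79 ± 0.98 for domestic pig (p = 0.5 and 0.7 by exact permutation, both 0.969 adjusted).

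Across the 6 libraries the mean log2 profile of the 6 genes, centred on its own mean, was -0.60, -0.40 and 0.32 in wild boar, against -0.66, 0.68 and 0.65 in domestic pig. COX3, ATP6 and CYTB followed it most closely, with root-mean-square differences of 0.166, 0.171 and 0.175 log2 units, whereas COX1 and ATP8 differed by 0.52 and 0.75. Among 10499 tested nuclear genes with a symbol, those near it included PTPRB, a receptor tyrosine phosphatase of vessels, CPM, a carboxypeptidase, CDHR1, a cadherin, and SMARCD1, a chromatin remodelling subunit, at 0.10 to 0.15 units; the median gene was at 0.40. The libraries share their TPM scale, so such likeness includes the shift of whole libraries.

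Nuclear genes build the rest of complexes III, IV and V, and their values are given after rescaling unless stated. Of 7 tested nuclear subunits of complex III, 13 of complex IV and 12 of complex V, 1, 1 and 2 passed, all higher in wild boar, and 28 of the 32 did not. These shares, 14.3%, 7.69% and 16.7%, stood beside the 8.88% of all genes that were higher and the 19.5% that passed either way. The list medians were log2 0.40, 0.30 and 0.20 after rescaling and -0.11, -0.11 and -0.30 on deposited TPM, where 0 passed; for all genes they were 0.01 and -0.41. UQCR11 of complex III rose by log2 0.60 (SE 0.15), COX5B of complex IV by 0.58 (SE 0.17), and ATP5MC3, of the rotor ring, and ATP5IF1, the inhibitor of ATP hydrolysis, by 0.57 (SE 0.13) and 0.71 (SE 0.22), with limma adjusted p of 0.0295, 0.0439, 0.0234 and 0.0499. CYC1, UQCRQ and UQCRC1 were at 0.48, 0.46 and 0.31, COX6A1, COX7A1 and COX4I1 at 0.51, 0.59 and 0.60, and ATP5ME and ATP5F1A at 0.41 and 0.29, none passing.

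The counts in the next 3 lists lie near the 19.5% of all genes that passed on this scale. Of 24 tested assembly factors of these complexes, 4 passed. ATPAF2, a chaperone of ATP synthase, SURF1, a complex IV factor, and UQCC3, a complex III factor, rose by log2 0.61, 0.47 and 0.43, and LYRM7, a complex III factor, fell by 0.42. On deposited TPM, SURF1 and UQCC3 turned to -0.0083 and -0.0091. Of 16 tested genes of mitochondrial DNA and mass, 4 passed: RNASEH1 and the membrane channel VDAC1 rose by 0.51 and 0.49, and the transcription factors NRF1 and GABPA fell by 0.45 and 0.36. VDAC1 turned to -0.014 on deposited TPM. Of 30 genes of mitochondrial transcription and RNA maturation, 6 passed, 2 higher and 4 lower. SLIRP, which with LRPPRC binds and stabilises mitochondrial messengers, rose by 1.57 (SE 0.16, limma adjusted p = 0.00283), ELAC2, which cuts transfer RNA ends, by 0.67 (SE 0.12), and MTERF1, a termination factor, and ANGEL2, of mitochondrial RNA processing, fell by 0.78 (SE 0.11) and 0.61 (SE 0.13). LRPPRC, the transcription factor TFAM and the polymerase POLRMT, named for their role outside the rule for named genes, were at -0.15, -0.33 and 0.09 and did not pass. On deposited TPM 0 genes of these 3 lists passed. Of the 16 genes named as passing in these 6 lists, SLIRP, MTERF1 and ELAC2 passed without any 1 library, and 13 lost the call without at least 1 library. COX5B, ATP5IF1, UQCC3, NRF1 and GABPA lost it whichever library was left out. Leaving out wild boar 1, 2 or 3 lost 11, 12 and 11 of the 16 calls, and domestic pig 1, 2 or 3 lost 8, 7 and 9. Of all genes tested, 2295 passed with all libraries. That number was 1068, 775 and 844 without wild boar 1, 2 or 3, and 870, 2208 and 1459 without domestic pig 1, 2 or 3.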

How the data were processed

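Per the labels' protocols, Trizol was used to extract total RNA, ribosomal RNA was removed and the libraries keep strand. BWA 0.7.17 and STAR 2.6.0c appear in the submitters' processing notes with no role, and the quantifier, genome build and annotation are not given in the sources used here. As deposited by the authors, the gene table holds TPM for 21280 protein-coding genes, 1 column per library, and its columns sum to under 1000000; 0 per-sample columns of this table went unused, and the circRNA table was not used. TPM keeps no depth, so no counting interval is given. Symbols matched 14821 gene identifiers. Nuclear copies of mitochondrial segments can share reads with these genes, so levels are uncertain.

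The 11752 genes that reached 1 TPM in 3 or more libraries were tested on log2(TPM + 1) with limma 3.58.1 in R 4.3.3, with a mean-variance trend, as two-sided tests of wild boar over domestic pig, with p adjusted by Benjamini-Hochberg over all tested genes and a threshold of 0.05. The test was repeated after median-ratio rescaling over tested genes above 0 in every library; the log2 factors of wild boar 1 to 3 were -0.18, -0.79 and 0.22, and those of domestic pig 1 to 3 were -0.19, 0.52 and 0.45. Shares and ratios were tested by exact two-sided permutation. Tests were checked on simulated data, which for limma were independent genes of equal spread with no shift of whole libraries. That checks the calculation and not how well the tests hold for these libraries. Gene order and coding lengths came from the Sscrofa11.1 RefSeq annotation.

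Libraries are the replicates. Apart from their numbered titles nothing states that they are separate animals, so p-values measure only the spread between these samples, which may be technical. No value above 0 was identical between any 2 libraries. Members and lists were chosen with earlier results of these data known. Named genes were all 6 members, the 4 tested genes of lowest p in each list and the 5 genes nearest to the members' profile, of which 1 is not reported here. Alternatives were other pseudocounts, filters and scalings, limma without its trend, a block for the replicate number and leaving out each library.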

Additional observations from a re-analysis of the deposited data

How the results depend on the processing

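The number of the 6 genes passing on deposited TPM, 1 with all libraries, was 0 to 4 when 1 library was left out, 0 in limma without the trend, with a mean TPM of at least 10, without the filter on low values and on the nuclear protein-coding sum, and 1 with a pseudocount of 0.1. On rescaled TPM it was 0 under each setting except leaving out a library, where it was 0 to 1. With 1 library left out, 0.494% to 5.66% of all genes tested passed on deposited TPM and 6.59% to 18.8% on rescaled TPM. The replicate numbers do not pair the libraries (correlation of deviations 0.10, -0.04 and -0.01 for numbers 1 to 3); with them as a replicate block 2 genes passed on deposited TPM and 0 on rescaled TPM, and the paired exact test of the ATP8 to ATP6 ratio, a difference of 1.42, gave p = 0.25, the smallest it can give. In the block fit 70 genes of all passed on deposited TPM, against 188, and 1250 on rescaled TPM, against 2295.

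Some signs turned. CYTB on deposited TPM was at 0.14 on the nuclear protein-coding sum and -0.68 to 0.066 without 1 library. With quantile normalization COX1, COX3 and ATP6 were at 0.19, 0.067 and 0.052, and without 1 library at -0.49 to 0.27, -0.46 to 0.12 and -0.47 to 0.0496 on rescaled TPM. Without 1 library, the difference in share was -2.02 to 8.53 percentage points for COX1 and -0.222 to 1.55 for ATP6. The log2 ratio differences were -0.31 to 0.40 for COX3/COX1, -0.042 to 0.94 for CYTB/COX1, -0.36 to 0.48 for ATP6/COX1, -0.14 to 0.078 for ATP6/COX3 and -0.41 to 0.039 for ND4L/ND4, the last added after seeing the data. On deposited TPM, also added then, CYC1, UQCRQ, UQCRC1, ATP5ME, ATP5F1A, SURF1, UQCC3, POLRMT and VDAC1 were at -0.021, -0.053, -0.20, -0.092, -0.22, -0.0083, -0.0091, -0.29 and -0.014. The cause was not tested, beyond the shift of all genes between scalings. The pairs of mitochondrial genes without overlap numbered 19 to 36 without 1 library, where fewer values must separate. The differences in mitochondrial share of the protein-coding sum (-6.94 to -2.15 points), in the share of the 6 genes (1.60 to 5.82) and in the ATP8 to ATP6 ratio (1.14 to 1.75) kept their direction in every setting run. The ATP8 share differed by 2.74 points, by 1.81 to 3.51 without 1 library, and by 0.536 with TPM multiplied by coding length. Gene depth is unknown, which limits what low levels can show.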
